A study of Mus musculus with 6 samples.

Results

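The OAS family comprises the 2′-5′-oligoadenylate synthetases and their synthetase-like relatives, and 8 of its genes, Oas1a, Oas1b, Oas1c, Oas1g, Oas2, Oas3, Oasl1 and Oasl2, were followed in the mouse melanoma line D4M-3A. They were taken by gene symbol from the 43043 genes listed for each sample, and all 8 were among the 14419 genes with enough reads to be tested. D4M-3A cells carried either an empty CRISPR-Cas9 construct (Ctrl, 3 samples) or a construct against Nfkbiz (Nfkbiz KO, 3 samples). Nfkbiz encodes IκBζ, a nuclear regulator of NF-κB target genes. Both groups had been transduced with lentivirus, selected with puromycin and grown in RPMI medium with serum, and whether the knockout cells were a pool or a clone is not given in the sources used here. RNA of the cultures was sequenced with paired reads, and the question of the comparison was which transcripts differed once IκBζ was lost. Levels are given as TPM, a unit corrected for transcript length and sequencing depth, and tests were made on the reads counted per gene.

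OAS enzymes bind double-stranded RNA, such as that of viruses, and then join ATP into short chains called 2-5A. These chains act as a second messenger of the antiviral response. Interferons induce most OAS genes through a DNA element, the interferon-stimulated response element (ISRE), which interferon-activated transcription factors bind.

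All 8 genes lie on mouse chromosome 5 in 2 clusters (GENCODE annotation of GRCm39). Oasl2 and Oasl1 lie side by side within 41.0 kb (chr5:115034997-115075974), and Oas2, Oas3, Oas1c, Oas1b, Oas1g and Oas1a lie within 178.1 kb (chr5:120868398-121046449), 5.79 Mb away. The RefSeq promoter table (250 bases before to 50 bases after a start, built on GRCm38.p6 and placed on GRCm39 by an exact, unique match) held 6 of the 8 genes, all but Oas2 and Oas1b. The ISRE core was searched as the letters GAAANNGAAA on both strands, where matches may overlap. It was found in 4 of the 6 windows, those of Oas1a, Oas1g, Oas1c and Oas3, and in 3.44% of all 32851 windows of the same length. The starts of Oas1c and Oas1b are 121 bases apart on opposite strands, so that the Oas1c window also holds the stretch before Oas1b. Read towards Oas1b, that stretch held the same 16 bases, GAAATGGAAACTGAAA, as the Oas1a and Oas1g windows, made of 2 overlapping core matches. The run began 20 bases before the RefSeq start of Oas1a, 18 before that of Oas1g and 22 before the annotated start of Oas1b. Among all windows it was found in 7 (0.0213%), which belong to 5 genes: Oas1a, Oas1g, Oas1c, Apol9a and Apol9b. The 120 bases before each start, 5′ to 3′ and with core matches in capitals, show how alike the Oas1 stretches are beside Oas3, with a core match farther from its start, and Oasl1, with none. They lie at chr5:121045589-121045708 (minus strand) for Oas1a, chr5:121025677-121025796 (minus strand) for Oas1g, chr5:120950580-120950699 (plus strand) for Oas1b, chr5:120915725-120915844 (minus strand) for Oas3 and chr5:115061179-115061298 (plus strand) for Oasl1, all in GRCm39. The starts used are those of RefSeq, except for Oas1b, where it is that of GENCODE. The Oas1a stretch lies inside the GENCODE model of that gene (chr5:121031070-121046449), which starts farther upstream. Those of Oas3 and Oasl1 reach a few bases into their GENCODE models.
Oas1a: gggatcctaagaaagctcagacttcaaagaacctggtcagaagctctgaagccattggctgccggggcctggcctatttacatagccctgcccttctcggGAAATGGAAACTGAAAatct
Oas1g: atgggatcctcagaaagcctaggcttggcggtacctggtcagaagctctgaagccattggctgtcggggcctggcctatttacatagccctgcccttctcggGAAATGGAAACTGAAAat
Oas1b: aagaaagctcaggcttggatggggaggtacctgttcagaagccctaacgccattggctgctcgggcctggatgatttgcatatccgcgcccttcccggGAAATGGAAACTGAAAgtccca
Oas3: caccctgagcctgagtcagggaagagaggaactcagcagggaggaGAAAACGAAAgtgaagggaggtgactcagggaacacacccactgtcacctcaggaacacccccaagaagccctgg
Oasl1: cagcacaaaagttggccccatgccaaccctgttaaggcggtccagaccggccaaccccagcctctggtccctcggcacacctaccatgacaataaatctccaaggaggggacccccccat

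A match of letters is not a bound site, and a window without one may hold other forms of the element. With 2 or 3 bases allowed between the blocks of the core, again 4 of the 6 windows had a match, against 5.99% of all windows. The γ-activated site, another interferon-responsive element, with the letters TTCNNNGAA, was found in 1 of the 6 (Oas1a) and in 8.3% of all windows. A κB consensus, the motif bound by NF-κB, was found in 3 of the 6 (Oas1c, Oas3 and Oasl1) and in 8.46% of all windows. The Oas1a and Oas1g windows were 86.1% identical over 303 aligned positions, gaps included. Their transcripts were 97.5% identical over 1860 aligned bases, and 31.2% of the stretches of 150 bases in the Oas1a transcript, the length of 1 read, occur unchanged in Oas1g.

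Samples had between 32219900 and 44927203 gene reads. Nfkbiz itself had 63.4 to 75.2 TPM in Ctrl and 34.7 to 35.1 TPM in Nfkbiz KO, where edited and unedited transcripts are counted alike. The 3 Ctrl samples differed more among themselves (chi-square per degree of freedom 25.8 to 65.9, of which the 2 highest values involve Ctrl replicate 1) than the 3 Nfkbiz KO samples (3.41 to 5.89). Melanocyte lineage markers were nearly absent from these melanoma cells. Of 7 such genes, Sox10 and Tyr had 0 reads in every sample, Tyrp1, Dct and Mlana at most 3, and the sum of all 7 was 1.11 to 1.74 TPM in Ctrl and 1.27 to 1.68 TPM in Nfkbiz KO. The 8 leukocyte markers summed to at most 0.241 TPM and the 4 epithelial markers to at most 0.154 TPM in any sample, with Cd3e, Itgax, Ncr1 and Epcam at 0 reads throughout. The 4 endothelial markers summed to 0.55 to 0.827 TPM in Ctrl and 1.32 to 1.85 TPM in Nfkbiz KO. Most of this came from Cdh5, the cadherin of vessel linings, which was higher in Nfkbiz KO (log2 fold change 1.34, edgeR adjusted p = 0.0023). Pecam1 did not follow (-0.16, edgeR adjusted p = 0.88), and Kdr and Tek were not among the genes tested. What part these transcripts have in the results was not tested. In bulk RNA, fewer cells with a transcript and less of it per cell cannot be told apart.

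Every OAS gene followed was more abundant in Nfkbiz KO than in Ctrl. All 8 were called higher by edgeR's quasi-likelihood test, with 0.05 as the limit on the adjusted p (Benjamini-Hochberg, over all tested genes). The same call was made for 18.2% of all genes tested, and 18.4% were called lower. In all 8, the 3 Nfkbiz KO samples lay above the 3 Ctrl samples in normalized reads, a pattern seen in 23.9% of all genes tested. The median log2 fold change of the 8 genes was 0.50, and that of all genes tested was -0.02. The log2 fold changes ran from 0.39 for Oas1b to 0.86 for Oasl1, so that each increase was below 2-fold. None of the 8 therefore passed the study's threshold of more than 2-fold, taken here with that limit on the adjusted p and a TPM difference above 4. The study's methods give no unit for the difference, and TPM was assumed. These limits were passed by 0.756% of all genes as higher. With no limit on the difference, 0 of the 8 passed as well. Under a looser threshold of 1.5-fold with an adjusted p of up to 0.1, passed by 5.81% of all genes as higher, 2 of the 8 passed, Oas3 and Oasl1. Without Ctrl replicate 1, all 8 genes were still called higher, with log2 fold changes from 0.40 to 0.92 and a median of 0.50. Among all 14793 genes tested then, 2336 were called higher.

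**Figure D1:**
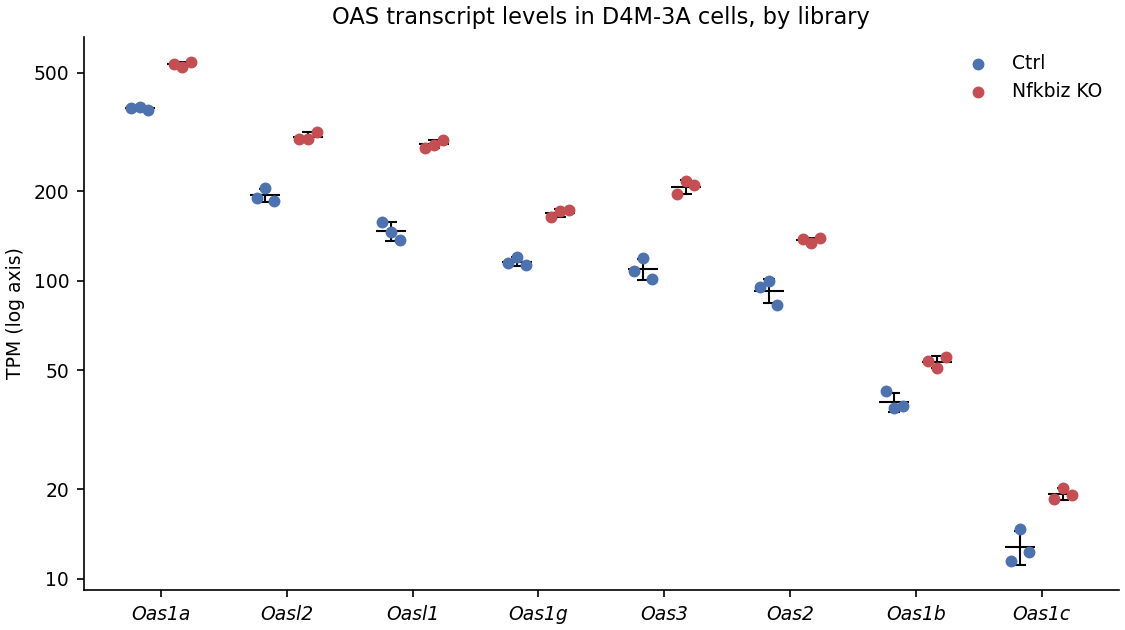
TPM (log axis) of the 8 OAS genes in each of the 3 Ctrl and 3 Nfkbiz KO samples, with points for samples, horizontal lines for group means and bars for the SD. For every gene the 3 Nfkbiz KO points lie above the 3 Ctrl points, and levels span from 11.4 TPM for Oas1c to 542 TPM for Oas1a.

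The Oas1 genes carry a single synthetase unit, and among them Oas1a was the most abundant. Oas1a encodes an enzyme that makes 2-5A, and it had 380, 384 and 373 TPM in Ctrl replicates 1, 2 and 3 and 535, 521 and 542 TPM in Nfkbiz KO replicates 1, 2 and 3. Samples within a group differed little, with a coefficient of variation of 1.42% in Ctrl and 1.93% in Nfkbiz KO, and the groups did not overlap. The means were 379 ± 5.38 and 532 ± 10.3 TPM (SD, n = 3 each), and the log2 fold change was 0.40 (standard error 0.051, 95% confidence interval 0.29 to 0.51, edgeR adjusted p = 6.3e-05). Oas1a ranked 285th of the 14419 genes tested by its mean TPM over all samples.

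Oas1g, the near copy of Oas1a, also encodes an active synthetase. It had 114, 120 and 113 TPM in the Ctrl samples and 164, 171 and 173 TPM in the Nfkbiz KO samples. The lowest Nfkbiz KO sample was well above the highest Ctrl sample. Its log2 fold change was 0.49 (standard error 0.052, edgeR adjusted p = 1.24e-05). Of the reads counted on Oas1a and Oas1g, 7.33% and 6.46% did not map uniquely, so a part of the signal of each may come from the other. With uniquely mapped reads alone, both were again called higher, as were 2638 of the 14186 genes tested.

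Oas1b, the flavivirus resistance gene, carries a premature stop in common laboratory strains and is annotated in GENCODE with a loss-of-function transcript. Its transcript was present at 42.6, 37.4 and 37.9 TPM in Ctrl and at 53.8, 50.9 and 55.5 TPM in Nfkbiz KO. The gap between the groups was narrower than for Oas1a but still free of overlap, and the log2 fold change was 0.39 (standard error 0.063, edgeR adjusted p = 0.00041). Oas1c, which shares the 121-base interval with Oas1b, was the least abundant of the 8. It had 11.4, 14.7 and 12.3 TPM in Ctrl and 18.5, 20.2 and 19.1 TPM in Nfkbiz KO. Its Ctrl samples varied the most of any member, with a coefficient of variation of 13.2%, and its log2 fold change was 0.49 (standard error 0.092, 95% confidence interval 0.29 to 0.69, edgeR adjusted p = 0.00122). Both genes of the pair rose, and the within-sample log2 ratio of Oas1c to Oas1b reads overlapped between Ctrl and Nfkbiz KO (-2.01 ± 0.23 in the former group, -1.91 ± 0.13 in the latter, SD, n = 3 each).

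Of the multi-unit synthetases, Oas2 carries a pair of synthetase units and Oas3 carries more. Oas2 had 95.4, 99.7 and 82.9 TPM in Ctrl and 138, 134 and 139 TPM in Nfkbiz KO. Ctrl replicate 3 was the low one, the Nfkbiz KO samples were tightly grouped, and the log2 fold change was 0.51 (standard error 0.055, edgeR adjusted p = 1.5e-05). Oas3, which responds best to long double-stranded RNA, had 108, 119 and 102 TPM in Ctrl and 195, 216 and 210 TPM in Nfkbiz KO. Its increase was among the larger of the 8, at 0.82 on the log2 scale (standard error 0.059, 95% confidence interval 0.69 to 0.94, edgeR adjusted p = 4.29e-07), and the mean TPM went from 110 ± 9.02 to 207 ± 10.8 (SD, n = 3 each).

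The synthetase-like genes carry ubiquitin-like domains. Oasl1 lacks synthetase activity and is known to hold back translation of Irf7 mRNA, whereas Oasl2 has kept the enzymatic activity. Oasl1 had 158, 146 and 137 TPM in Ctrl and 279, 286 and 296 TPM in Nfkbiz KO, with no overlap. Its log2 fold change of 0.86 was the largest of the 8 (standard error 0.060, edgeR adjusted p = 3.15e-07), and 3.56% of all genes tested had a higher one. Oasl2 had 190, 204 and 186 TPM in Ctrl and 299, 298 and 317 TPM in Nfkbiz KO. All 3 Nfkbiz KO samples again lay above all Ctrl samples, and the log2 fold change was 0.55 (standard error 0.054, edgeR adjusted p = 6.23e-06).

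In Ctrl, the order of the levels in TPM was Oas1a, Oasl2, Oasl1, Oas1g, Oas3, Oas2, Oas1b and Oas1c. Neighbours in that order did not overlap between their 3 samples, except Oas1g and Oas3, whose ranges of 113 to 120 and 102 to 119 TPM did. In Nfkbiz KO no neighbours overlapped and Oas3 stood above Oas1g. Oasl2 and Oasl1 were then close, at 305 ± 10.5 and 287 ± 8.62 TPM (SD, n = 3 each). The summed level of the 8 genes was 1100, 1125 and 1043 TPM in Ctrl and 1681, 1697 and 1752 TPM in Nfkbiz KO, 1.57 times higher on average (p = 0.1 in an exact two-sided permutation test, which cannot go lower with 3 samples per group).

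The make-up of that sum also differed between the groups. Oasl1 took 13.5% ± 0.775 of it in Ctrl and 16.8% ± 0.154 in Nfkbiz KO, and Oas3 took 10.1% ± 0.481 and 12.1% ± 0.568 (SD, n = 3 each). Oas1a took 34.8% ± 0.862 in Ctrl and 31.1% ± 0.577 in Nfkbiz KO while remaining the largest component. The shares of Oas1b and Oas1g were also lower in every Nfkbiz KO sample, and those of Oas1c, Oas2 and Oasl2 overlapped. Since shares add up to a whole, reads of 1 gene were also divided by reads of another within each sample, which needs no scaling between samples. In all 12 pairs of Oas3 or Oasl1 with one of the other 6 genes, chosen after the values were seen, the log2 ratio was higher in every Nfkbiz KO sample than in any Ctrl sample, by 0.26 to 0.47 between the group means. Oas3 and Oasl1 had the largest log2 fold changes of the 8 genes, so these ratios restate that order. The share of all gene pairs free of overlap was not computed. Of the 15 pairs among the other 6 genes, 5 did not overlap, with differences of at most 0.16. The exact permutation test cannot go below 0.1 for any of the 28 pairs. For the neighbours Oasl1 and Oasl2, the log2 ratio was -1.54, -1.75 and -1.72 in Ctrl and -1.37, -1.34 and -1.36 in Nfkbiz KO. For the neighbours Oas3 and Oas2, it was 0.60, 0.63 and 0.69 in Ctrl and 0.86, 1.02 and 0.96 in Nfkbiz KO. In both pairs, the lowest Nfkbiz KO ratio was above the highest Ctrl ratio.

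**Figure D2:**
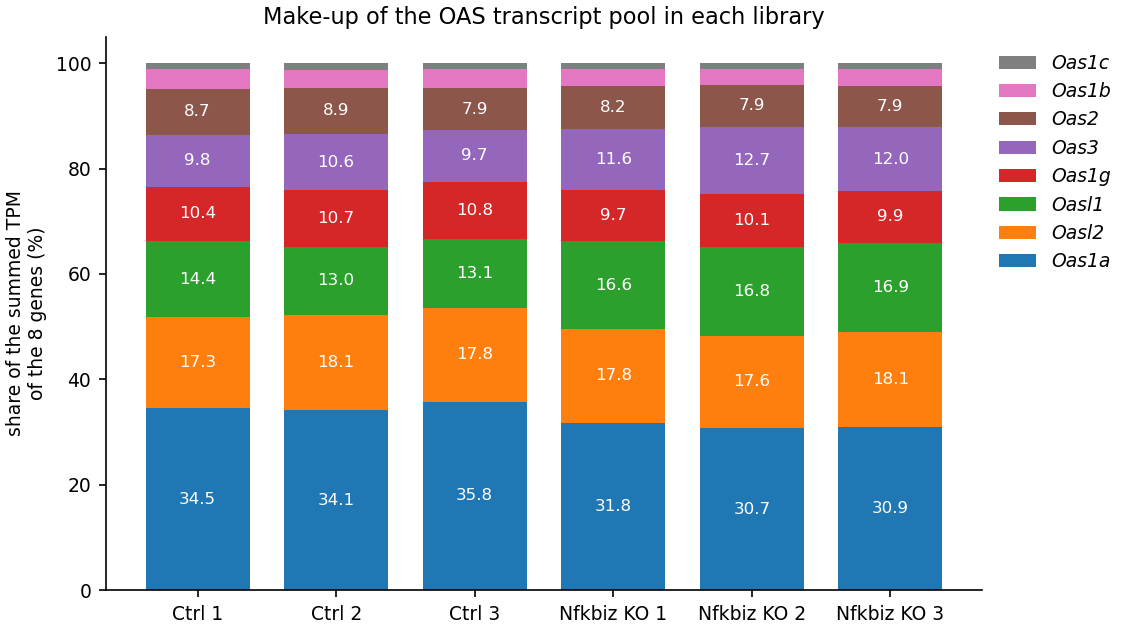
Share (%) of each of the 8 genes in their summed TPM, as stacked bars from 0 to 100 for each Ctrl and Nfkbiz KO sample, with shares above 6% printed. The Oas1a segment is 34.1 to 35.8% in Ctrl and 30.7 to 31.8% in Nfkbiz KO, and the Oasl1 segment is 13.0 to 14.4% and 16.6 to 16.9%.

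The tables listed 4 further Oas1 genes, Oas1d, Oas1e, Oas1f and Oas1h, which lie in the same cluster. Oas1d, Oas1e and Oas1f had at most 6, 6 and 7 reads in any sample and were not tested. Oas1h had 226 to 344 reads but only 0.37 to 0.70 TPM, a value computed from exons alone. Its log2 fold change was 0.09 (standard error 0.11, 95% confidence interval -0.14 to 0.33, edgeR adjusted p = 0.55). That interval ends below the smallest estimate of the 8, but it overlaps the intervals of Oas1b (0.25 to 0.53), Oas1a and Oas1c. The difference itself was not tested, and on log2(TPM + 1) the fold change of Oas1h was -0.01. The Oas1a gene model lies inside that of Oas1d on the opposite strand, where Oas1d had 2 to 6 reads and Oas1a 8005 to 14044.

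Other tested genes near the clusters were called higher or lower in small numbers, to be read beside the 18.2% and 18.4% of all genes tested that were called higher and lower. Of 9 with a start within 250 kb of a member in the larger cluster, Oas1h included, 2 were called higher and 0 lower, with a median log2 fold change of 0.09. The 2 were Plbd2, a lysosomal protein gene (log2 fold change 0.37, edgeR adjusted p = 0.0013), and the long noncoding RNA gene Gm43069 (1.23, edgeR adjusted p = 0.034). Gm43069 runs through part of Oas1c on the opposite strand, and as the authors counted reads on both strands the 2 cannot be told apart there. It had 8 to 45 reads per sample, where Oas1c had 323 to 657. Around Oasl2 and Oasl1, 12 genes were tested, of which 1 was called higher and 2 lower, with a median of -0.04. The higher one was the noncoding RNA gene Gm9936 (1.56, edgeR adjusted p = 0.017), with a mean TPM of 0.0913 ± 0.0219 in Ctrl against 0.294 ± 0.0370 in Nfkbiz KO (SD, n = 3 each). The lower ones were Acads, which encodes an enzyme of fatty acid oxidation (-0.54, edgeR adjusted p = 0.00029), and Unc119b (-0.36, edgeR adjusted p = 0.0013), the latter not called with limma on log2(TPM + 0.1) (limma adjusted p = 0.055). The calls of Gm43069 and Gm9936 were lost without Ctrl replicate 1 (edgeR adjusted p = 0.089 and 0.059) and with DESeq2 (adjusted p = 0.051 and 0.095), and that of Gm9936 also without a filter on low counts (edgeR adjusted p = 0.054). Leaving out Nfkbiz KO replicate 3 also ended both calls, as did leaving out Ctrl replicate 2 or Nfkbiz KO replicate 1 for Gm43069 and Nfkbiz KO replicate 2 for Gm9936 (edgeR adjusted p from 0.060 to 0.14).

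**Figure D3:**
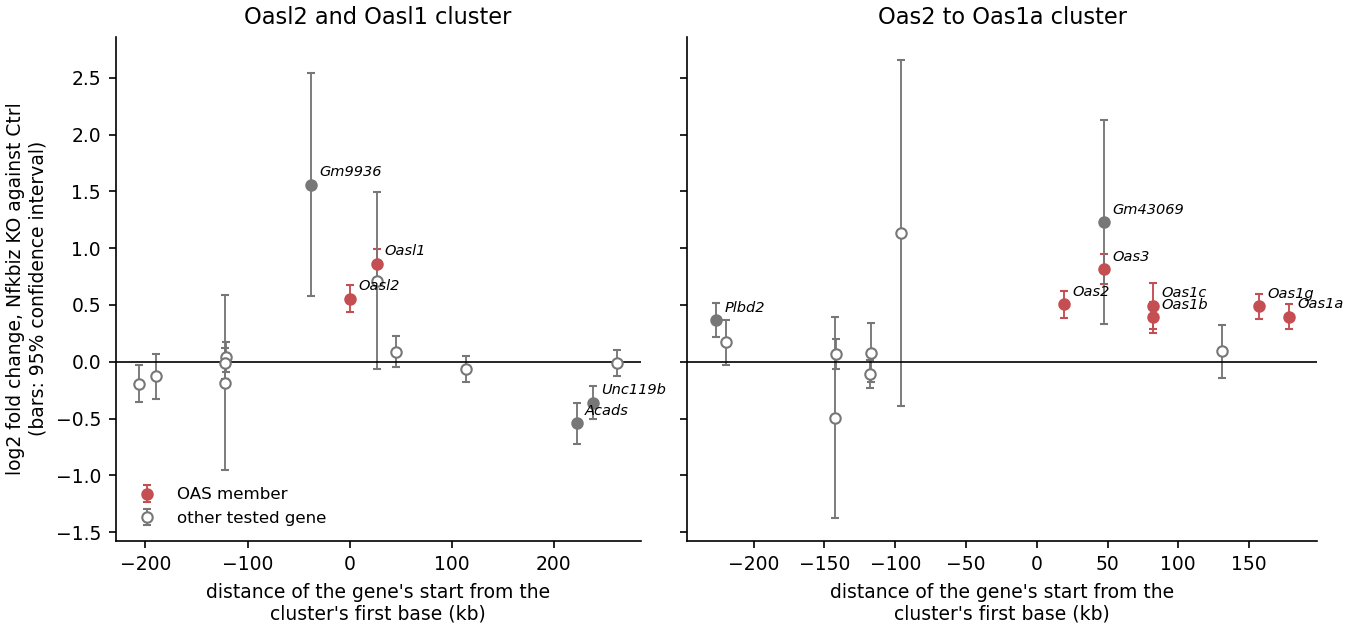
Log2 fold change (Nfkbiz KO over Ctrl) with its 95% confidence interval for every tested gene near the 2 OAS clusters, against the distance (kb) of its start from the first base of the cluster. The 8 OAS genes are in red and other genes in grey, filled at an edgeR adjusted p of 0.05 or less, and 5 of the 21 other genes are filled.

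The 3 other genes of the 2-5A pathway described here had log2 fold changes between 0.04 and 0.16. Abce1, best known for its need in ribosome recycling, was called at 0.16 on the log2 scale (standard error 0.056, edgeR adjusted p = 0.042). It was no longer called with a block for the replicate number (edgeR adjusted p = 0.061), or without Ctrl replicate 1, Nfkbiz KO replicate 1, 2 or 3 (edgeR adjusted p = 0.10, 0.13, 0.074 and 0.18), or with limma on log2(TPM + 1) and log2(TPM + 0.1) (limma adjusted p = 0.063 and 0.075). Pde12 and Akap7, whose products can degrade 2-5A, had log2 fold changes of 0.07 (95% confidence interval -0.09 to 0.23, edgeR adjusted p = 0.47) and 0.04 (-0.15 to 0.24, edgeR adjusted p = 0.75). Of these 3 partners, 1 was called higher and 0 lower, against 18.2% and 18.4% of all genes tested, with a median of 0.07.

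Other sensors of foreign nucleic acid, with the proteins that act beside them, were called higher in 9 of 9 tested genes, against 18.2% of all genes tested, with a median log2 fold change of 0.58. Tlr3, an endosomal receptor for double-stranded RNA, went from 36.4 ± 3.86 to 90.9 ± 5.57 TPM (log2 fold change 1.22) and Ifih1, which encodes the cytosolic sensor MDA5, from 64.5 ± 7.29 to 120 ± 2.92 TPM (0.80, SD, n = 3 each). Ddx58, which encodes RIG-I, and Cgas, a DNA sensor with the same catalytic fold as the OAS enzymes, had log2 fold changes of 0.44 and 0.58. The smallest changes were those of Eif2ak2, which encodes the kinase PKR (0.25, edgeR adjusted p = 0.029), and of the RNA editing enzyme gene Adar (0.18, edgeR adjusted p = 0.039). Eif2ak2 was not called when Ctrl replicate 1 or any single Nfkbiz KO replicate was left out (edgeR adjusted p from 0.066 to 0.094), nor was Adar when any single Nfkbiz KO replicate was (0.098 to 0.13). With limma, Eif2ak2 was not called on log2(TPM + 1) or log2(TPM + 0.1) (limma adjusted p = 0.10 and 0.12), and Adar was not called on the latter (limma adjusted p = 0.059). Without Ctrl replicate 1, 8 of the 9 were called higher, against 2336 of the 14793 genes tested then.

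Of 12 genes of type I interferon signalling, 5 were called higher and 1 lower (18.2% and 18.4% of all genes tested), with a median log2 fold change of 0.08. Ifnb1, which encodes interferon-β, had 14, 20 and 14 reads in Ctrl and 43, 54 and 71 reads in Nfkbiz KO, and its log2 fold change was 1.76 (standard error 0.28, edgeR adjusted p = 0.00042). Irf7, the transcription factor whose mRNA Oasl1 is known to act on, went from 421 ± 13.1 to 657 ± 6.86 TPM (0.55, SD, n = 3 each). Usp18, a brake on the interferon receptor, Irf1 and Stat2 were also called higher, with log2 fold changes of 0.59, 0.45 and 0.23. The gene called lower was Ifnar2, which encodes a chain of the receptor (-0.25, edgeR adjusted p = 0.0051), a call lost with limma on log2(TPM + 0.1) (-0.15, limma adjusted p = 0.056). Apol9a and Apol9b, the genes outside the family that share the 16-base run, were named after their values were seen. Their log2 fold changes were 0.38 and 0.29 (edgeR adjusted p = 0.00019 and 0.00056), a call made for 18.2% of all genes tested. Of the reads of each, 13% did not map uniquely, and what part the run has was not tested.

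**Figure D4:**
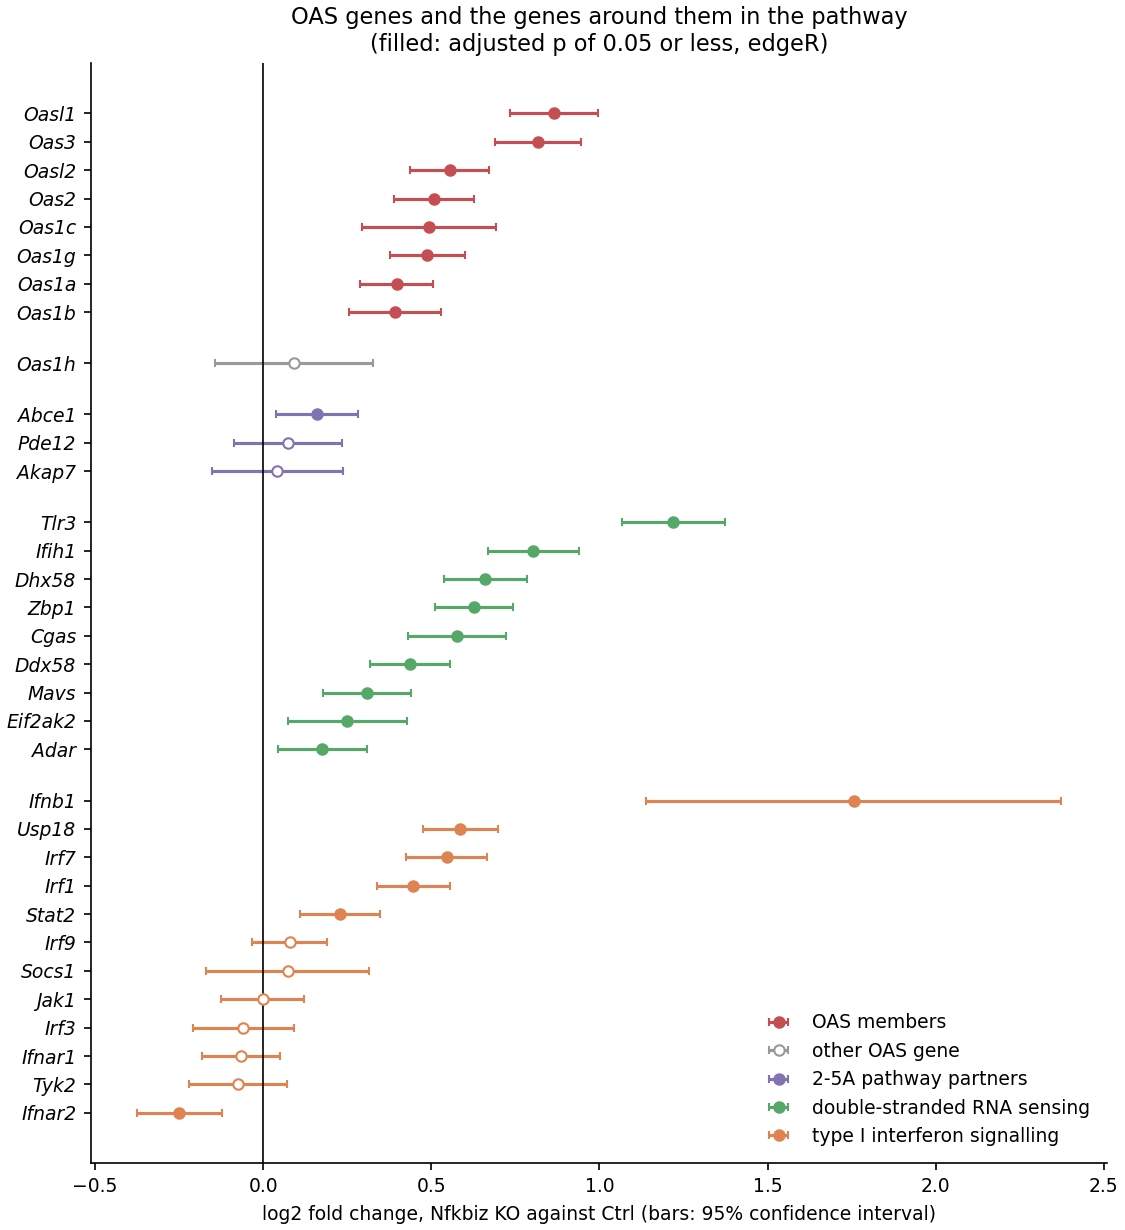
Log2 fold change (Nfkbiz KO over Ctrl) with its 95% confidence interval for the OAS genes, Oas1h, the partners of the 2-5A pathway, double-stranded RNA sensing and type I interferon signalling, filled at an edgeR adjusted p of 0.05 or less. The group labelled double-stranded RNA sensing also holds Cgas, the gene of a DNA sensor. The 8 OAS genes lie between 0.39 and 0.86, inside the range of the sensing genes (0.18 to 1.22), while Pde12, Akap7, Oas1h and 6 of the 12 interferon signalling genes (Irf9, Socs1, Jak1, Irf3, Ifnar1 and Tyk2) have intervals that include 0.

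The genes whose pattern over the 6 samples was most like the mean standardized log2 read level of the 8 OAS genes, among 9763 other tested genes with a mean of at least 5 TPM, were Sdc2, Ifi207, Cd274, Parvb and Dll1. Their Pearson correlations were between 0.9990 and 0.9999 over 6 samples that fall into 2 groups, and 15.7% of the genes compared had one above 0.9. Cd274, which encodes the immune checkpoint ligand PD-L1, went from 12.3 ± 0.724 to 39.7 ± 1.76 TPM, and the interferon-inducible Ifi207 from 97.2 ± 7.10 to 247 ± 12.8 TPM (SD, n = 3 each). Their log2 fold changes of 1.62 and 1.25 were larger than those of the OAS genes, and those of Sdc2, Parvb and Dll1 were 0.34, 0.62 and 1.41.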

How the data were processed

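The study mapped paired reads of 3 Ctrl and 3 Nfkbiz KO samples with CLC Genomics Workbench, counting reads on both strands and keeping reads with up to 10 hits. The build is GRCm39 in the study's methods and GRCm38 in the submitters' processing notes. The authors deposited raw counts (total and unique gene reads) and, from exons, TPM and RPKM, written with a decimal comma, which was converted. The study describes 3 independent experiments per group.

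Total gene reads were tested with edgeR 4.0.16 in R 4.3.3 (TMM, filterByExpr with min.count 10 and min.total.count 15, quasi-likelihood test, Benjamini-Hochberg over 14419 genes). The procedure was tested on simulated data with equal spread in both groups, unlike the unequal spread of these samples. Log2 fold changes are from read counts, and TPM served for levels. No pairing of the samples by replicate number was seen (correlations of deviations 0.037, -0.023 and 0.026), which does not exclude it. Intervals cover 95%.

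The members and lists were chosen with earlier results of these data known. Named are the 8 members, the list genes, tested genes starting within 250 kb of a member and the 5 genes of most similar pattern with a mean of at least 5 TPM. Alternatives were RLE factors, DESeq2 1.42.0, other filters, unique reads, limma 3.58.1 on log2(TPM + 1) and log2(TPM + 0.1), a replicate block and each sample left out. Positions come from GENCODE on GRCm39, matched by symbol. Of the listed genes, 2 are not reported here. Figures were drawn with matplotlib 3.10.9.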

Additional observations from a re-analysis of the deposited data

How the results depend on the processing

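Under each of 14 alternatives (RLE factors, DESeq2, 2 filters, unique reads, limma on 2 TPM scales, a replicate block and each sample left out), 8 of 8 OAS genes were called higher, with log2 fold changes from 0.36 to 0.97 and adjusted p of at most 0.015 from the tool used. These alternatives called 1956 to 2971 genes higher, with 12078 to 23244 genes tested, against 2627 of 14419 in the edgeR test above. With the replicate block, 5087 genes were called instead of 5274 and the median log2 fold change of the 8 genes was 0.50. Leaving out each sample in turn gave 3798 to 5533 called genes and medians of 0.49 to 0.55. The median was 0.56 with limma on log2(TPM + 1) and 0.58 on log2(TPM + 0.1), where the median of all genes was 0.06 and 0.08, and the cause was not tested. With 1.5-fold and 0.1 as limits on the fold and the adjusted p, 2 of the 8 passed, against 0 at 2-fold. Oas1h, not called, had log2 fold changes of -0.011 and -0.048 with limma on log2(TPM + 1) and log2(TPM + 0.1). Akap7, not called either, had -0.0063 without Ctrl replicate 3 and 0.11 without Ctrl replicate 2. Counts of exon reads alone are not in the columns used, so a test on them was not run. Oas1d, Oas1e and Oas1f had too few reads for a test at this depth.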
